A study of Caenorhabditis elegans with 21 samples.

Results

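Whole worms of CB4856, a wild Hawaiian strain of the nematode Caenorhabditis elegans that supplied the fathers of the study's crosses, were compared with whole worms of the maternal strain by poly(A) mRNA sequencing. The comparison used 6 of the 21 libraries of the series, chosen by strain and library type from the sample labels, with 3 libraries per strain. The CB4856 worms carried no named allele. The maternal worms, of N2 background, were labelled fem-1(hc17ts)/TX189(OMA-1::GFP). They carried a temperature-sensitive allele of fem-1 and a GFP-tagged OMA-1. Worms of both strains were kept on plates seeded with OP50 bacteria and labelled with 24 C, and the protocol describes adults washed off the plates. No sex is given for either group of worms, although the design text names the fathers as males. Strain, fem-1 allele, transgene and any difference in sex or age between the cultures run together in this comparison and cannot be told apart.

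By way of background, fem-1 is needed for male development and for spermatogenesis, so XX animals of fem-1(hc17ts) raised at a restrictive temperature make oocytes but no sperm. The results below go beyond sperm mRNAs. The nematode cuticle is built of collagens secreted by the hypodermis and is replaced at each larval molt, under a programme that includes molting proteins and hedgehog-related proteins. Wild strains such as CB4856 also differ from N2 in gene content, most of all in large, fast-evolving families such as F-box, MATH-BATH, C-type lectin and chemoreceptor genes.

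Depth was 34.72, 34.57 and 156.1 M reads in CB4856 worms, against 33.91, 31.7 and 135.78 M in maternal-strain worms, as recovered from the steps of the RPKM values, which are reads scaled to gene length and library size. Replicates 1 and 2 of a strain differed by no more than read sampling, with a mean dispersion of read pairs of 0.96 in CB4856 worms against 1.09 in maternal-strain worms, where 1 is sampling alone. They were counted as 1 sample beside replicate 3, which gave n = 2 samples per strain. Spread between these samples was small, with a median SD of 0.036 in CB4856 worms against 0.033 in maternal-strain worms on the log2(RPKM + 1) scale. Nothing says that replicate 3 came from separately grown worms, so p-values and SDs measure only the spread between these samples. Every tested gene with a log2 difference of at least 1 also had an adjusted p under 0.05, and the size of the difference alone therefore decided the calls. Libraries of the strains did not overlap in 80.5% of the tested genes, and 80.3% had an unadjusted p under 0.05, so neither marks out a gene or a list.

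CB4856 worms had higher levels of far more genes than the reverse. Of 10840 genes with at least 1 RPKM in at least 3 of the 6 libraries, 1611 (14.9%) rose and 224 (2.07%) fell in CB4856 worms, by limma at an adjusted p under 0.05 and a log2 difference of at least 1 on the log2(RPKM + 1) scale. These shares are the background for every count of calls below. Among the 1611 higher genes, 77.2% had at least 10 RPKM in the high-purity CB4856 or the fog-2 sperm library, against 40.6% of the 224 lower genes and 71.2% of all genes tested. The filter on low values let through 1518 genes that stayed under 1 RPKM in every maternal-strain library and 180 that stayed under 1 RPKM in every CB4856 library. Among the 9142 genes that reached 1 RPKM in both strains, 425 rose and 117 fell. Scaling mattered for the split: higher genes made up 87.8% of the calls as deposited, 64.5% after quantile normalization and 75.2% after centring on genes nearly absent from sperm, which moved the median of all genes by -0.21 and -0.31 on the log2 scale.

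**Figure D1:**
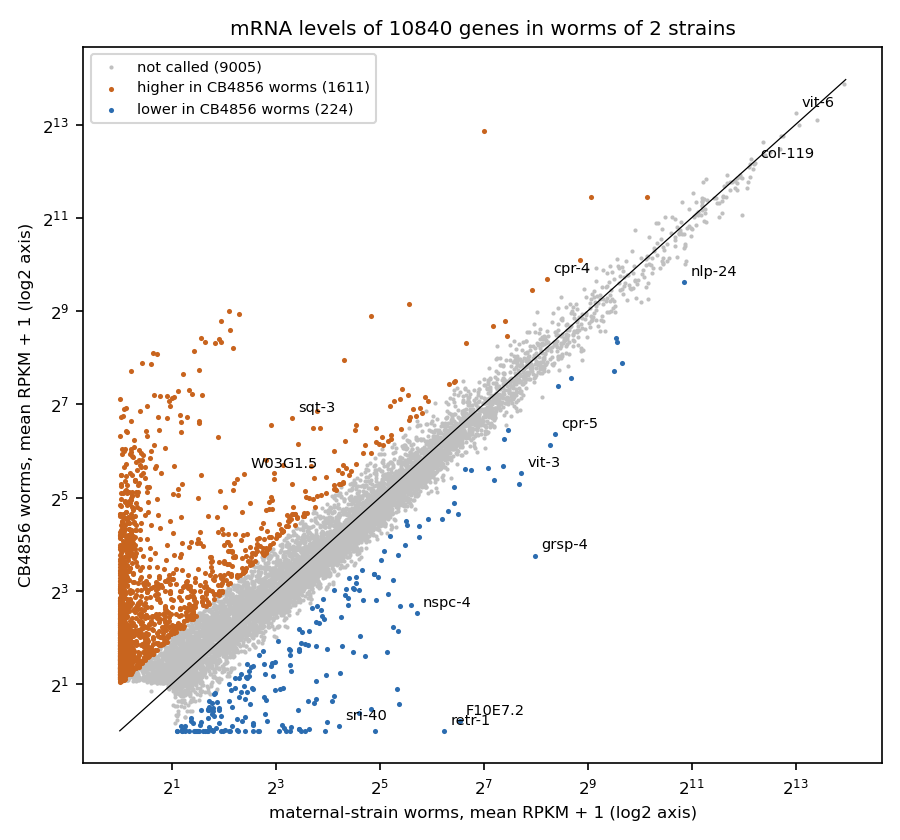
Mean RPKM + 1 of each of the 10840 tested genes in CB4856 worms (y axis) against maternal-strain worms (x axis), both on log2 axes, with genes called higher in CB4856 worms in orange and genes called lower in blue. The line marks equal levels; the column of orange points at the left edge holds genes near 0 in maternal-strain worms, and the row of blue points at the bottom holds genes near 0 in CB4856 worms, such as retr-1.

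Marker genes of sperm differed far more between the worms than those of oocytes or yolk. The sperm markers msp-3 and msp-142, whose protein drives the crawling of nematode sperm, averaged 159 and 441 RPKM in CB4856 worms, against 1.51 and 2.87 RPKM in maternal-strain worms. Both groups carried abundant mRNA of genes used by hermaphrodites and females. The yolk gene vit-6 was at 9742, 9732 and 9768 RPKM in CB4856 worms against 8209, 8177 and 8228 RPKM in maternal-strain worms, and mex-5, an oocyte and early embryo gene, at 1278, 1268 and 1281 RPKM against 1420, 1417 and 1418 RPKM. The log2 differences were 0.25 for vit-6 and -0.15 for mex-5. fem-1 itself was at 34, 33.9 and 35.3 RPKM in CB4856 worms against 37.8, 40 and 39.4 RPKM in maternal-strain worms, which is no check of a temperature-sensitive allele. Male markers were mixed. dmd-6 averaged 33.1 RPKM in CB4856 worms against 19.5 RPKM in maternal-strain worms. An abundant entry of swm-1 averaged 26.4 against 23.6 RPKM, and another entry 0.0123 against 0.0302 RPKM. Neither dmd-6 nor swm-1 was called. The male regulator mab-3 averaged 5.44 RPKM in CB4856 worms against 0.262 RPKM in maternal-strain worms, and dmd-3 averaged 0.257 and 0 RPKM. The male neuron genes cwp-1 and pkd-2 averaged 3.26 and 0.327 RPKM in CB4856 worms against 0 and 0.0152 RPKM in maternal-strain worms. Of these, mab-3 and cwp-1 were called higher. Sperm libraries also held both, mab-3 at 8.67 RPKM in high-purity and 40.7 RPKM in fog-2 sperm, and cwp-1 at 197 and 56.2 RPKM. The male markers klp-6 and plg-1 were not analysed here. As in any bulk sample, more cells of a type and more RNA per cell cannot be told apart.

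Genes that sperm libraries hardly contained still differed between the strains. Of 390 tested genes under 1 RPKM in both the high-purity CB4856 and the fog-2 sperm library, 84 rose and 40 fell in CB4856 worms. The balance turned with the settings, to 23 higher and 73 lower after quantile normalization and 8 higher and 16 lower with a pseudocount of 5. Sperm libraries also held somatic mRNA, such as 1247 RPKM of the adult cuticle collagen col-119 in the high-purity one, so this class is a strict one. The share of higher genes was 21.5% in this class, 12.3% of the 1560 genes with 1 to 5 RPKM in the higher sperm library, 7.7% of the 1177 genes with 5 to 10 RPKM and 16.1% of the 7713 genes with 10 RPKM or more. The share of lower genes in the same order was 10.3%, 3.8%, 2.9% and 1.2%. Of the genes that were at least 2-fold higher in high-purity than in low-purity sperm, 48.8% rose in CB4856 worms, while 5.1% of those at least 2-fold lower in high-purity sperm did. Bands of sperm level and purity were added after the data were seen. Genes that passed the filter through a single strain had to differ. Their number in the class low in sperm and in these bands was not counted.

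The largest rise in the class nearly absent from sperm was that of W03G1.5, a gene without a gene-class name, with 46.2, 43.9 and 43.8 RPKM in CB4856 worms against 4.02, 4.6 and 4.18 RPKM in maternal-strain worms. Its log2 difference was 3.11 ± 0.038 (SE; limma adjusted p = 7.62e-08). The prion-like gene pqn-32 followed with 12.4, 13.4 and 12.4 RPKM against 1.07, 1.22 and 0.955 RPKM, a log2 difference of 2.74. C14A4.9 (log2 difference 2.67), the hedgehog-related gene wrt-2 (2.32), the lipocalin-related gene lpr-4 (2.26), F30H5.3 (2.22), F56D3.1 (2.19), H42K12.3 (2.06) and 2 features without a name (2.5 and 2.23) completed the 10 largest rises. All 10 of these were below 50 RPKM in CB4856 worms. C14A4.9, wrt-2, lpr-4, F30H5.3, H42K12.3 and both features without a name were under 1 RPKM in every maternal-strain library. They had passed the filter through CB4856 worms alone and had to differ.

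Among the falls of that class, sri-40, a chemoreceptor of the serpentine receptor class i, stood first, with 0.119, 0.0238 and 0.0686 RPKM in CB4856 worms against 17.6, 16.9 and 17.8 RPKM in maternal-strain worms (log2 difference -4.11). nspc-4, of the nematode-specific peptide family c, had 4.22, 4.70 and 5.04 RPKM in CB4856 worms against 52, 49.5 and 52 RPKM in maternal-strain worms, a log2 difference of -3.19. Then came C50E3.13 (-3.0), F57G8.7 (-2.99), F39F10.3 (-2.99), F54E4.2 (-2.98), K10C2.8 (-2.79), the caenacin antimicrobial peptide gene cnc-7 (-2.77), the C-type lectin clec-190 (-2.24) and C29G2.2 (-2.13). F54E4.2, F39F10.3, F57G8.7, sri-40 and C29G2.2 were also among the genes nearly absent from CB4856 worms that are described further on. Each had passed the filter through maternal-strain worms alone and had to differ.

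Many genes of cuticle building and molting were higher in CB4856 worms. Of 176 cuticle collagen genes 73 were tested, of which 27 (37%) rose and 2 fell, with a median log2 difference of 0.72 against 0.04 over all genes tested. Molting genes rose in 10 of 20 tested members, with a median of 1.01, and hedgehog-related genes in 11 of 18, with a median of 1.68, while no member of either list fell. These lists and their members were chosen with earlier results of these data known. By level, 15 of the 73 collagens, 5 of the 20 molting genes and 8 of the 18 hedgehog-related genes were under 1 RPKM in every maternal-strain library and so had passed the filter through CB4856 worms alone and had to differ. With quantile normalization the numbers of higher genes were 17, 6 and 8, and the medians 0.32, 0.21 and 0.99.

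The cuticle collagen sqt-3 was at 103.8, 104.6 and 102 RPKM in CB4856 worms, against 9.65, 7.88 and 9.08 RPKM in maternal-strain worms (log2 difference 3.39 ± 0.031 SE, limma adjusted p = 3.6e-08). The collagen dpy-14 had 113, 115 and 116 RPKM in CB4856 worms against 12.6, 13.1 and 13 RPKM in maternal-strain worms. col-165 had 30.2, 30.5 and 31.4 RPKM in CB4856 worms against 1.92, 1.78 and 1.86 RPKM in maternal-strain worms. These were the largest rises of the list. The most abundant collagens of the list did not share the change. The adult collagen col-119 was at 4537, 4565 and 4600 RPKM in CB4856 worms against 4685, 4735 and 4762 RPKM in maternal-strain worms, and col-143 at 4009, 4031 and 3698 RPKM against 3401, 3383 and 3189 RPKM. col-19, a collagen of the adult cuticle, averaged 956 RPKM in CB4856 worms against 507 RPKM in maternal-strain worms, with a log2 difference of 0.91 that missed the size required. Only col-112 and col-110 fell, with 6.02 and 0.365 RPKM in CB4856 worms against 24.7 and 2.28 RPKM in maternal-strain worms; they were named after their values were seen.

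Furrow collagens, which form the circular furrows of the cuticle and are made early in each molting cycle, were low but higher in CB4856 worms in 3 of the 4 tested members. By level, 2 of the 4, dpy-7 and dpy-2, were under 1 RPKM in every maternal-strain library. They had passed the filter through CB4856 worms alone and had to differ. With a pseudocount of 5, 1 of the 4 was called higher. dpy-3 had 22.5, 23.2 and 24.2 RPKM in CB4856 worms against 2.22, 2.15 and 2.31 RPKM in maternal-strain worms, dpy-7 had 4.68, 5.13 and 4.87 RPKM against 0.835, 0.840 and 0.828 RPKM, and dpy-2 had 3.07, 3.63 and 3.66 RPKM against 0.267, 0.143 and 0.350 RPKM. The fourth, dpy-10, was at 7.07, 7.68 and 7.55 RPKM in CB4856 worms against 4.06, 4.26 and 4.09 RPKM in maternal-strain worms, a log2 difference of 0.72 below the size required. All 4 are also members of the collagen list.

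Among the molting genes, noah-2, an apical matrix protein of the epidermis, was at 43.7, 44.9 and 46.6 RPKM in CB4856 worms against 6.57, 7.06 and 6.91 RPKM in maternal-strain worms (log2 difference 2.56). Its relative noah-1 was at 17.3, 17.5 and 17.9 RPKM against 3.08, 2.54 and 3.12 RPKM, and the lipocalin lpr-3, needed for the outer matrix, at 13.8, 12.8 and 12.3 RPKM against 1.5, 1.16 and 1.22 RPKM. Higher levels were also called for mlt-8, mlt-9, mlt-11, acn-1, fbn-1, let-653 and ptr-4. The molting regulator nhr-23 did not follow them, with 17.4, 17.3 and 18.3 RPKM in CB4856 worms against 18.5, 18.5 and 17.8 RPKM in maternal-strain worms (log2 difference -0.02, adjusted p = 0.65); its level in fog-2 sperm was 44.4 RPKM.

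Among hedgehog-related genes, which encode secreted proteins related to hedgehog and act largely in the epidermis, grd-3 was the most abundant called member, with 317, 316 and 319 RPKM in CB4856 worms against 100, 98.7 and 102 RPKM in maternal-strain worms. grd-10 had 35.9, 33.6 and 34.0 RPKM against 3.30, 1.93 and 2.94 RPKM, grl-16 had 8.19, 8.27 and 7.61 RPKM against 0.767, 0.729 and 0.566 RPKM, and wrt-2 had 6.76, 6.78 and 7.36 RPKM against 0.456, 0.721 and 0.633 RPKM. Not every abundant member rose. grl-4 was at 191, 193 and 178 RPKM in CB4856 worms against 172, 172 and 163 RPKM in maternal-strain worms. Of the 11 higher members, 4 had at least 10 RPKM in a sperm library, grd-3 and grd-10 among them, with 161 and 43.5 RPKM in high-purity sperm. None of the 10 higher molting genes and 7 of the 27 higher collagens did. In the hybrid embryos, 8 of the 10 higher molting genes, 7 of the 11 hedgehog-related genes and 13 of the 27 collagens averaged at least 1 RPKM, sqt-3 69.1 RPKM and dpy-14 98.2 RPKM among them. The share of all tested genes with such an embryo level was not counted.

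Of the markers of larval molt, mlt-10 averaged 3.73 RPKM in CB4856 worms against 1.88 RPKM in maternal-strain worms, and dpy-7, sqt-3 and noah-1 were called higher as above. The shares of larvae and of embryos inside the worms were not measured, and their part in these values was not tested.

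**Figure D2:**
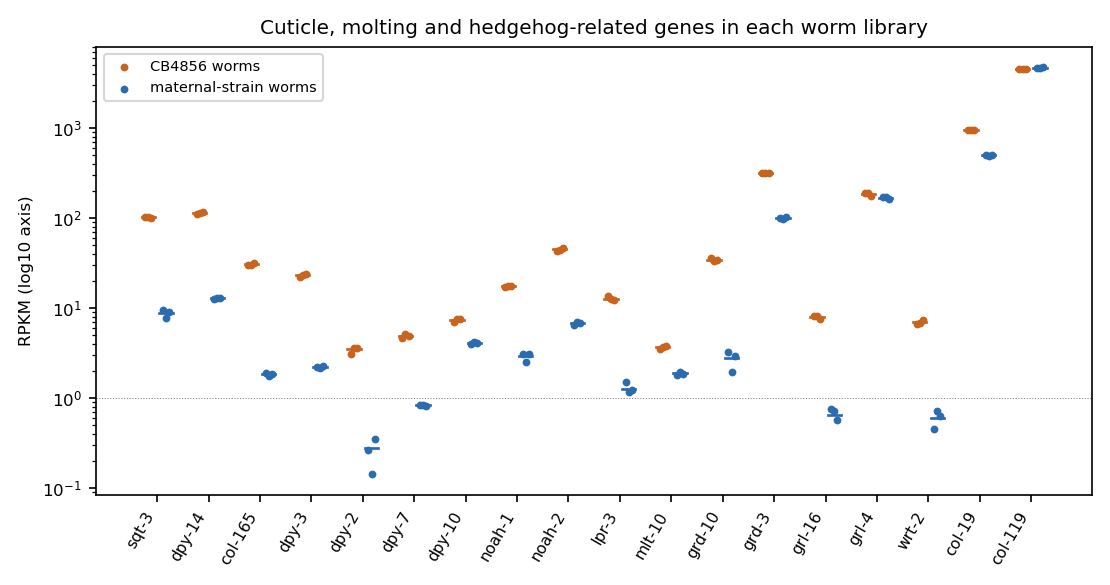
RPKM on a log10 axis of 18 cuticle, molting and hedgehog-related genes in each library, with 3 points per strain (CB4856 worms in orange, maternal-strain worms in blue) and a bar at the mean of the 2 samples. Genes from sqt-3 to wrt-2 lie higher in CB4856 worms, col-165 with 30.9 against 1.85 RPKM and grl-4 with 185 against 168 RPKM, while the adult collagen col-119 lies at 4537 to 4600 RPKM in CB4856 worms and 4685 to 4762 RPKM in maternal-strain worms.

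Other somatic tissues moved less. Of 34 muscle sarcomere genes, 4 rose, none fell (34 had an unadjusted p under 0.05 by limma) and 30 had a difference above 0, with a median of 0.40. The called members were mup-2, a troponin T, with 145, 144 and 141 RPKM in CB4856 worms against 58.3, 57.9 and 57.1 RPKM in maternal-strain worms, unc-52, the perlecan of the muscle basement membrane, with 61.6, 62.7 and 61 RPKM against 25.07, 24.7 and 24.3 RPKM, and the low genes tni-1 and myo-3. Fitted together with the embryo libraries, mup-2 (adjusted p = 0.105) and tni-1 (adjusted p = 0.0585) lost their calls, and after centring on genes low in sperm none of the 4 was called. The abundant actin gene act-2 averaged 1503 RPKM in CB4856 worms against 1353 RPKM in maternal-strain worms. Among 23 pan-neuronal genes, rab-3 rose (3.43, 3.42 and 3.30 RPKM against 1.10, 1.09 and 1.16 RPKM) and unc-119 fell (7.76, 8.15 and 8.10 RPKM against 22.7, 23.4 and 21.7 RPKM); rab-3 lost its call under each of the 3 rescalings and unc-119 in the fit with the embryos (adjusted p = 0.151). Nuclear hormone receptors, a large family of transcription factors in worms, gave 2 rises in 77 tested members, nhr-91 and nhr-41, and neither held after rescaling or without maternal-strain replicate 1. By level, 6 of the 77, nhr-91 among them, had passed the filter through CB4856 worms alone and 2 through maternal-strain worms alone. No ciliary gene of 8 tested was called (6 with an unadjusted p under 0.05).

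Several secreted defence peptides of the epidermis were lower in CB4856 worms. Of 101 tested neuropeptide and insulin genes, 8 rose and 5 fell, with 5 higher and 10 lower after quantile normalization and 7 and 8 under either centring. By level, 11 of the 101 had passed the filter through CB4856 worms alone and 0 through maternal-strain worms alone. Those 11, ins-31 and ins-37 among them, had to differ. As deposited, the 5 lower ones, nlp-24, nlp-28, nlp-29, nlp-31 and nlp-33, all belong to the group of nlp genes known for antimicrobial peptides made in the epidermis rather than for signalling between neurons. nlp-24 was at 786, 793 and 785 RPKM in CB4856 worms against 1884, 1860 and 1851 RPKM in maternal-strain worms, a log2 difference of -1.24. nlp-29 was at 210, 201 and 211 RPKM in CB4856 worms against 728, 724 and 735 RPKM in maternal-strain worms (-1.81). nlp-31 was at 24.3, 25.2 and 25.7 RPKM against 74.5, 79.6 and 81 RPKM (-1.61). Members of this group other than nlp-24 were named after their values were seen. In the fit with the embryos 1 member of the list was called lower, and nlp-24 was not (adjusted p = 0.366). By mean level over the worm libraries nlp-24 was the most abundant member of the list, and nlp-27 came next. nlp-27 went the same way by less, with 1115, 1114 and 1054 RPKM in CB4856 worms against 1411, 1381 and 1366 RPKM in maternal-strain worms (log2 difference -0.35). The 101 members summed to 3418 to 3463 RPKM in the CB4856 libraries and 5760 to 5822 RPKM in the maternal-strain libraries, although the median member was 0.37 above 0 as deposited and -0.22 after quantile normalization.

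A like divide ran through the antimicrobial and fungus-induced peptides, of which 12 of 31 tested members rose and 5 fell. By level, 11 of the 31 had passed the filter through CB4856 worms alone and 0 through maternal-strain worms alone. Those 11 had to differ. The lower 5 were cnc-7 (1.03, 1.42 and 1.35 RPKM in CB4856 worms against 16.3, 16.1 and 13 RPKM in maternal-strain worms), cnc-2, cnc-4, fip-5 and fip-6, the last 4 averaging 6.17, 7.27, 2.36 and 3.33 RPKM in CB4856 worms against 20, 21.8, 9.95 and 10.3 RPKM in maternal-strain worms. cnc genes encode caenacins, which are induced in the epidermis by fungal infection. Of the 12 higher members, 11 were abundant in sperm libraries, such as fipr-20 with 228, 237 and 240 RPKM in CB4856 worms against 0, 0.717 and 0.335 RPKM in maternal-strain worms, and 767 RPKM in high-purity sperm. Copies within the fipr group are close to each other, and how their shared reads were counted is not given in the sources used here. fipr-21, at 187, 188 and 191 RPKM in CB4856 worms against 183, 184 and 183 RPKM in maternal-strain worms, and fip-2 were not called.

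Insulins contributed the largest rises of the neuropeptide list. ins-31 was at 43.4, 42.8 and 44.5 RPKM in CB4856 worms against 0, 0 and 0.0208 RPKM in maternal-strain worms, and ins-37 at 50.5, 51.7 and 47.9 RPKM against 0.244, 0.348 and 0.375 RPKM. High-purity sperm held 482 RPKM of ins-31 and 405 RPKM of ins-37. ins-19 differed from them in that sperm libraries held little of it, 2.91 RPKM in the high-purity and 0.611 RPKM in the fog-2 one. It had 33.7, 37.6 and 41.4 RPKM in CB4856 worms against 2.85, 3.40 and 4.09 RPKM in maternal-strain worms (log2 difference 3.10 ± 0.12, limma adjusted p = 4.2e-06).

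**Figure D3:**
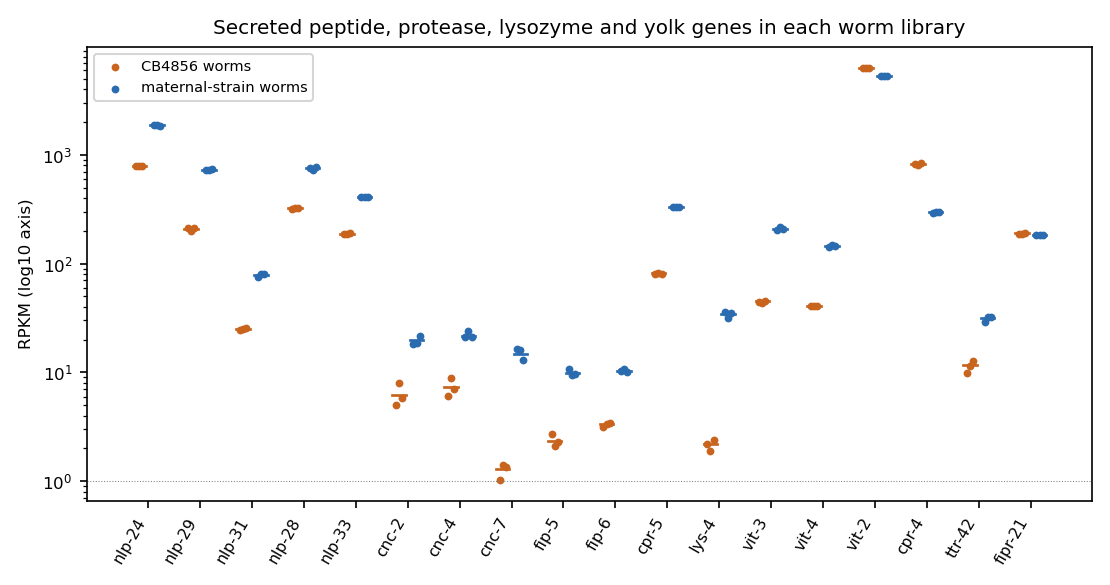
RPKM on a log10 axis of 18 genes for secreted peptides, intestinal proteases, lysozymes and yolk in each library, with 3 points per strain (CB4856 worms in orange, maternal-strain worms in blue) and a bar at the mean of the 2 samples. The nlp, cnc and fip-5 and fip-6 points lie lower in CB4856 worms, as do cpr-5, lys-4, vit-3 and vit-4, whereas cpr-4 lies higher and vit-2 and fipr-21 lie close together.

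The intestine makes yolk and digestive enzymes. Of 46 tested proteases, lysozymes and saposins, 7 fell and 2 rose. The lysozyme gene lys-4 fell the most, with 2.2, 1.88 and 2.37 RPKM in CB4856 worms against 35.9, 31.6 and 35.2 RPKM in maternal-strain worms (log2 difference -3.47). cpr-5, a cathepsin B-like protease, was at 80.6, 81.9 and 81 RPKM in CB4856 worms against 331, 329 and 329 RPKM in maternal-strain worms (-2.01), whereas cpr-4, of the same family, was at 820, 809 and 838 RPKM against 294, 296 and 299 RPKM (1.47). The related proteases changed in opposite directions. Lower levels were also called for lys-6, cpr-8, spp-25, ilys-5 and spp-23, and a higher level for lys-2. The saposin-like genes spp-17 and spp-5, the most abundant of the list, averaged 4880 and 3076 RPKM in CB4856 worms against 4497 and 3418 RPKM in maternal-strain worms. The protease genes asp-3 and cpr-6, intestinal markers, averaged 380 and 607 RPKM in CB4856 worms against 601 and 865 RPKM in maternal-strain worms, differences below the size required.

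Among the 7 vitellogenin and yolk receptor genes, vit-3 and vit-4 fell. vit-3 was at 44.5, 43.9 and 45.7 RPKM in CB4856 worms against 204, 215 and 210 RPKM in maternal-strain worms (log2 difference -2.2), and vit-4 at 41.2, 40.7 and 40.7 RPKM against 141.7, 148.5 and 145.4 RPKM (-1.81). vit-2 was at 6289, 6279 and 6326 RPKM in CB4856 worms against 5308, 5299 and 5339 RPKM in maternal-strain worms. vit-3, vit-4 and vit-5 are near-identical copies, between which the authors' counting may have split reads, so a difference between single copies is uncertain.

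Of 77 tested lipid genes, 10 rose and 3 fell, with 8 and 8 after quantile normalization and 8 and 7 after centring on genes low in sperm. By level, 9 of the 77 had passed the filter through CB4856 worms alone and 1 through maternal-strain worms alone, and so had to differ. Each of the 10 higher genes had at least 10 RPKM in a sperm library, led by acdh-8, an acyl-CoA dehydrogenase gene, with 15.8, 17.1 and 16.6 RPKM in CB4856 worms against 0.0856, 0.183 and 0.0748 RPKM in maternal-strain worms. The lower genes, named after their values were seen, were acs-2, an acyl-CoA synthetase gene induced by fasting (16.8 RPKM in CB4856 worms, 53.4 RPKM in maternal-strain worms), the desaturase fat-5 (20.1 and 52.8 RPKM) and the lipase lipl-1 (3.41 and 11.5 RPKM). Of 23 glutathione S-transferases, gst-27, gst-22 and gst-38 fell and gst-39 rose. By level, 4 of the 23 had passed the filter through maternal-strain worms alone and 0 through CB4856 worms alone. Those 4 had to differ. gst-27 was at 0.278, 0.479 and 0.389 RPKM in CB4856 worms against 28.3, 26 and 28.2 RPKM in maternal-strain worms, and gst-22 at 0, 0 and 0 RPKM against 4.92, 5.98 and 5.17 RPKM. Of 26 UDP-glucuronosyltransferases 5 rose and 1 fell, but 2 were higher and 4 lower after quantile normalization. By level, 3 of the 26 had passed the filter through CB4856 worms alone and 3 through maternal-strain worms alone, and so had to differ. Higher levels were called for 2 of 17 cytochrome P450s and 2 of 41 heat shock genes, hsp-16.2 among the heat shock genes with 7.01, 6.83 and 6.28 RPKM in CB4856 worms against 0.629, 0.942 and 0.555 RPKM in maternal-strain worms. In these lists 3 P450s and 1 heat shock gene, hsp-16.2, had passed the filter through CB4856 worms alone and had to differ.

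C-type lectins, a large family of secreted sugar-binding proteins, were called higher in 63 of 115 tested members (246 in the table) and lower in 5. After quantile normalization 48 were higher and 12 lower. Of the 63, 52 had at least 10 RPKM in a sperm library and 51 of the 115 had passed the filter through CB4856 worms alone. clec-219 had 117, 115 and 121 RPKM in CB4856 worms against 0.0652, 0.0697 and 0.0570 RPKM in maternal-strain worms and 392 RPKM in high-purity sperm. Lectins without much sperm mRNA rose as well. clec-222 averaged 18.6 RPKM in CB4856 worms against 6.09 RPKM in maternal-strain worms, with at most 2.45 RPKM in the clean sperm libraries, and clec-66 averaged 62.7 and 16.3 RPKM, with at most 9.28 RPKM. In the other direction, clec-190 had 7.77, 5.53 and 6.61 RPKM in CB4856 worms against 35.9, 34.3 and 34.8 RPKM in maternal-strain worms. clec-10 gave no read in CB4856 worms and is taken up below.

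Substrate adaptors of ubiquitin ligases were called lower more often than higher. F-box A, B and C proteins and proteins with MATH and BTB domains pick targets for ubiquitin ligases, and their genes are many, poorly conserved between species and often without a known function. Of 39 tested F-box genes (343 in the table), 10 (25.6%) fell and 5 (12.8%) rose. Of 20 tested MATH and BATH genes (78 in the table), 7 (35%) fell and 2 (10%) rose, and of 29 BTB and Skp1-related genes 4 fell and 2 rose. The background of lower calls was 2.07%. By level, 9 of the 39, 6 of the 20 and 5 of the 29 were under 1 RPKM in every CB4856 library. They had passed the filter through maternal-strain worms alone and had to differ. In the other direction, 5, 3 and 0 had passed through CB4856 worms alone. At the stricter minimum of 5 RPKM, 3 F-box and 2 MATH or BATH genes were called lower. With a pseudocount of 5 only 1 in each of these lists was, and no BTB or Skp1-related gene.

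The calls rested on few abundant members. fbxc-50 was at 15.2, 15.4 and 14.4 RPKM in CB4856 worms against 43.8, 45.1 and 43.5 RPKM in maternal-strain worms (log2 difference -1.5), and bath-28 at 0.0830, 0.0417 and 0.0277 RPKM against 7.04, 8.59 and 7.95 RPKM (-3.09). fbxa-206 and bath-5 gave no read in any CB4856 library, against means of 4.30 and 3.81 RPKM in maternal-strain worms. The widely expressed members, bath-40 at 199, 203 and 203 RPKM in CB4856 worms against 269, 269 and 270 RPKM in maternal-strain worms and bath-42 at 103, 107 and 110 RPKM against 129, 128 and 131 RPKM, differed little. Chemoreceptors, with 1170 genes the largest family of the table, gave 8 tested members, sri-40 lower and srg-31 higher (13.9, 12.8 and 13.3 RPKM in CB4856 worms against 0.153, 0.163 and 0.124 RPKM in maternal-strain worms). Both had passed the filter through a single strain, sri-40 through maternal-strain worms and srg-31 through CB4856 worms, and had to differ.

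Nematode-specific peptide families split by group. Of 36 tested members 21 rose, 20 of them with at least 10 RPKM in a sperm library, and 9 fell, none with so much. By level, 16 of the 36 had passed the filter through CB4856 worms alone and 3 through maternal-strain worms alone. These had to differ. The higher ones came mostly from groups a and d, such as nspd-1 with 323, 326 and 317 RPKM in CB4856 worms against 2.22, 4.15 and 2.49 RPKM in maternal-strain worms. The lower ones were all of groups c and e. Beside nspc-4, nspc-20 averaged 2.06 RPKM in CB4856 worms against 25.5 RPKM in maternal-strain worms, and nspe-1 5.36 and 41.1 RPKM. The copies of each group are close in sequence, so single members are uncertain.

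Lists of the shared cell machinery and of the female germline gave few calls. No proteasome gene of 32 was called, but 31 had a difference below 0, with a median of -0.30 and an unadjusted p under 0.05 for all 32. The meiotic axis and synapsis genes (30 tested, 27 below 0, median -0.30), oogenesis and early embryo genes (33 tested, 28 below 0, median -0.27) and replication and cell cycle genes (29 tested, 24 below 0, median -0.19) likewise gave no call, with unadjusted p under 0.05 in 26, 29 and 22 of them. After quantile normalization the 4 medians were -0.32, -0.45, -0.24 and -0.22 in this order, against -0.18 over all genes tested. Both centrings lowered the differences of all genes, so these medians had to stay below 0 and the centrings are no check. The oocyte regulator oma-1 was at 121, 121 and 120 RPKM in CB4856 worms against 194, 194 and 197 RPKM in maternal-strain worms, which carry the tagged OMA-1, a log2 difference of -0.69. The eggshell genes perm-2 and perm-4 averaged 2758 and 3472 RPKM in CB4856 worms against 2350 and 3432 RPKM in maternal-strain worms. No mitochondrial ribosomal protein gene of 63 was called (41 with an unadjusted p under 0.05), nor any of 24 short-chain dehydrogenases (18). Among 76 cytosolic ribosomal proteins the single call was rpl-42, higher in CB4856 worms with 2.79, 2.94 and 2.44 RPKM against 0.0705, 0 and 0 RPKM, and with 84.8 RPKM in high-purity sperm. Among 44 respiratory chain genes, of which 31 lay above 0 with a median of 0.22 (-0.09 after centring on genes low in sperm), it was cyc-2.2, a cytochrome c gene, with 48.8, 52.5 and 53.6 RPKM against 0.133, 0 and 0.116 RPKM, while its paralog cyc-2.1 averaged 2492 RPKM in CB4856 worms against 2353 RPKM in maternal-strain worms.

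Of 15 tested histone genes 4 fell and 2 rose. his-72, an H3.3 histone gene, was at 172, 169 and 162 RPKM in CB4856 worms against 349, 350 and 336 RPKM in maternal-strain worms, and his-60 at 0.462, 1.3 and 0.903 RPKM against 8.04, 8.19 and 7.44 RPKM. The linker histone his-24 rose, with 95.6, 94.1 and 90.4 RPKM in CB4856 worms against 21.2, 22.5 and 22.8 RPKM in maternal-strain worms. his-70, an H3.3-like gene with 338 RPKM in high-purity sperm, was at 6.43, 6.23 and 6.10 RPKM in CB4856 worms and had no value in maternal-strain worms.

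**Figure D4:**
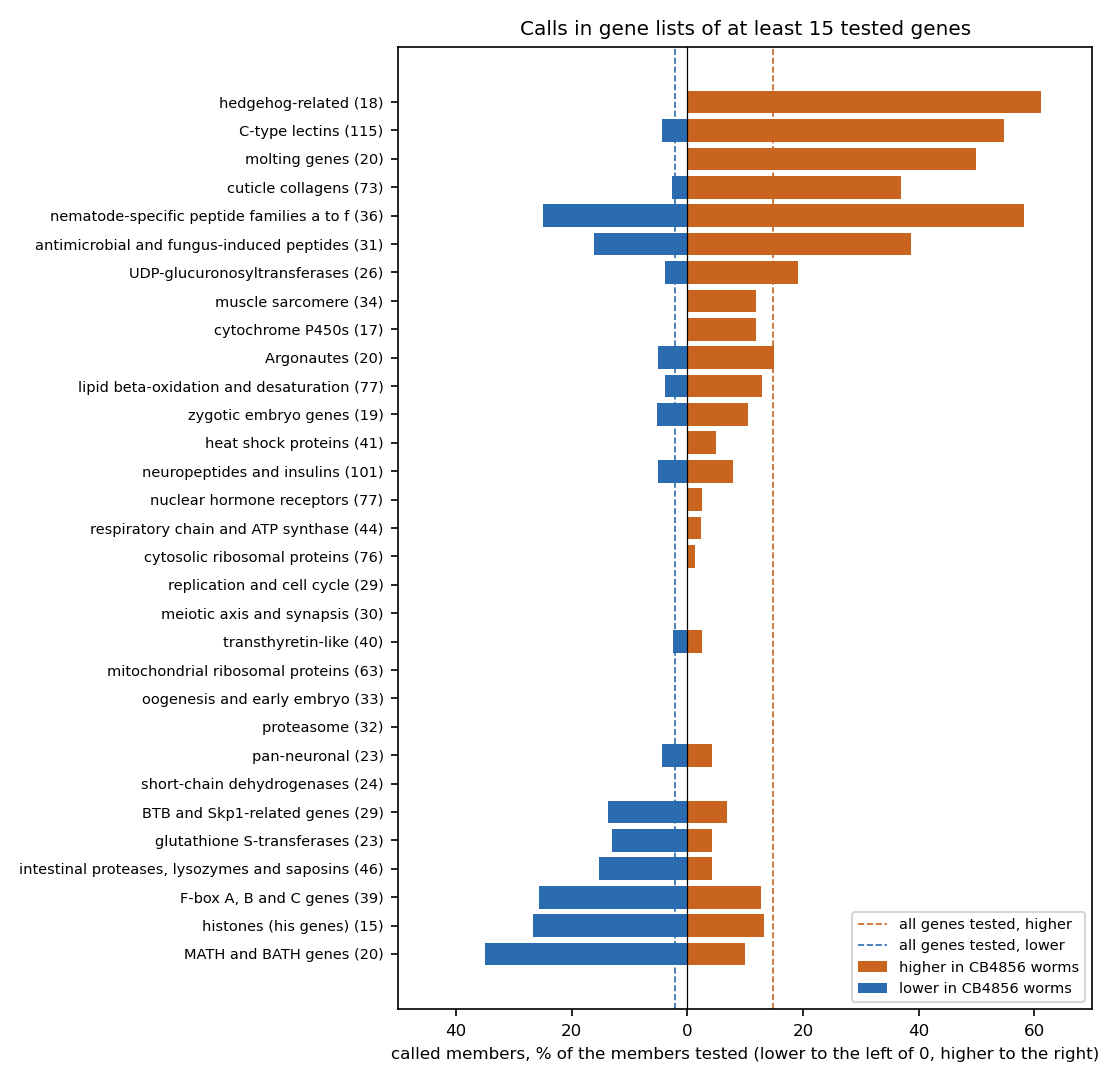
Share of the tested members of each gene list called higher (orange, to the right of 0) and lower (blue, to the left of 0) in CB4856 worms, as % of the members tested, with the number tested in brackets and dashed lines at the shares over all genes tested, 14.9% higher and 2.07% lower. Among the lists beyond the orange line are hedgehog-related genes, C-type lectins, molting genes, cuticle collagens, nematode-specific peptides and antimicrobial peptides. MATH and BATH, histone, F-box and nematode-specific peptide genes lie furthest beyond the blue line. Many other lists pass it too, lectins (4.3%) and collagens (2.7%) among them, and in a short list 1 call is enough. Of the 36 nematode-specific peptide genes 20, and of the 115 lectins 52, were higher and had at least 10 RPKM in a sperm library.

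Genes without a gene-class name made up much of the difference. Of 4218 tested genes that carry only a sequence name, 931 (22.1%) rose and 2.5% fell, and of 295 nameless features 84 (28.5%) rose and 15 (5.1%) fell, against 596 (9.4%) and 105 (1.7%) of 6327 genes with a gene-class name. Among features under 10 RPKM in both clean sperm libraries, a split added after the data were seen, the shares that rose were 11.9% with a gene-class name, 11.5% with a sequence name and 12.8% without a name. The shares that fell were 3.5%, 4.8% and 7.7%. Genes that passed the filter through a single strain had to differ, and their number by kind of name was not counted.

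The largest rises without a gene-class name belonged to sperm genes. F58A6.9 had 213, 200 and 209 RPKM in CB4856 worms against 0, 0.270 and 0.189 RPKM in maternal-strain worms and 5220 RPKM in high-purity sperm. C39B5.10 stood apart from the other 4 by strain. It was at 130.0, 141.7 and 139.3 RPKM in CB4856 worms, had no value in any maternal-strain worm library, and was at 297.6 RPKM in high-purity CB4856 sperm but 1.13 RPKM in fog-2 sperm. C05B5.11, Y1A5A.1 and K12H6.9, the other 3, had 412.7, 190 and 497.7 RPKM in fog-2 sperm. The largest falls were those of F10E7.2, Y9D1A.1, C27C7.1, F56A4.3 and F54D10.7, all of which met the rule for genes nearly absent from CB4856 worms.

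That rule took features with at least 1 RPKM in each maternal-strain worm library and a CB4856 mean under 1/20 of the maternal-strain mean, so the worm levels chose them and are given without a test. Of 8899 features with at least 1 RPKM in each maternal-strain library, 71 (0.798%) met it, and 33 of the 71 had no value in any CB4856 worm library. By name, 27 had a gene-class name, 39 a sequence name and 5 none. Just inside the limit lay grsp-4, with a ratio of 20.1, and F39F10.3, with 20.2; just outside lay btb-14, with 19.7, and Y49G5A.1, with 19. The median of the 71 in maternal-strain worms was 4.3 RPKM.

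The most abundant were grsp-4, a glycine-rich secreted protein gene, with 11.5, 13.5 and 12.5 RPKM in CB4856 worms against 248, 250 and 256 RPKM in maternal-strain worms, and F10E7.2, with 0.230, 0.154 and 0.128 RPKM against 97.6, 91.0 and 89.3 RPKM. retr-1 had no read in the 3 CB4856 libraries and 72.8, 74.2 and 75.7 RPKM in maternal-strain worms; 3 reads over the CB4856 libraries together would have given 0.00512 RPKM, so it was at least 14600-fold lower there, for counting error only. phat-3 averaged 0.483 RPKM in CB4856 worms against 40.5 RPKM in maternal-strain worms. clec-10 again gave no read, against 29.1 RPKM, and was at least 3050-fold lower. Y9D1A.1, gst-27, C27C7.1, sri-40 and F19B10.2 completed the 10 highest in maternal-strain worms, with means of 16.3 to 39.2 RPKM there and 0.0699 to 0.861 RPKM in CB4856 worms. Below these, pud-4 gave no read in CB4856 worms against 14.5 RPKM in maternal-strain worms and was at least 868-fold lower.

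Sperm libraries, which the rule did not use, also held little of many of these mRNAs in CB4856. Of the 71 features, 59 had at least 1 RPKM in fog-2 sperm, a library of fog-2(q71), another strain. In 34 of these 59 (57.6%) the high-purity CB4856 sperm library held under 1/20 of the fog-2 level, while this was so for 399 of all 14293 features with at least 1 RPKM in fog-2 sperm (2.79%). The genes with most sperm mRNA showed it clearly. R07C12.2, a pseudogene in RefSeq, had 0.146 RPKM in high-purity CB4856 sperm and 165.1 RPKM in fog-2 sperm, pud-4 had 0.0580 and 107.7 RPKM, B0281.3 had 0.628 and 90.9 RPKM, and skr-4, a Skp1-related gene, had 0.263 and 58.2 RPKM. Not all did. npl-4.1 had 37.2 RPKM in high-purity CB4856 sperm and 84.8 RPKM in fog-2 sperm, although its worm levels were 0.517 RPKM in CB4856 and 12.3 RPKM in the maternal strain, and C06A5.12 had 13.4 and 16.4 RPKM in sperm. With 1 library of each kind of sperm, no test is possible.

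Hybrid 1-cell embryos, whose mothers were of the maternal strain, held part of these mRNAs. The poly(A) embryo mean was at least 1 RPKM for 38 of the 71 and at least the maternal-strain worm mean for 28. The same shares over all 8899 features open to the rule were not counted, so these numbers mark neither an excess nor a lack. C27C7.1 averaged 497.5 RPKM in embryos, with 0.306 RPKM in CB4856 worms against 23.2 RPKM in maternal-strain worms. F19B10.2 averaged 196.1 RPKM in embryos and F54D10.7 149.3 RPKM. By contrast, 24 of the 71 averaged under 0.1 RPKM in embryos, pud-4, gst-27 and phat-3 among them.

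Many of the 71 were neighbours. RefSeq (WBcel235, used here only for names and gene order, since the build of the deposited files is not given) held 64 of them, and 21 stood directly beside another of the set. Allowing up to 2 other loci between members, 27 fell into 10 runs. The longest run held F14D2.5, F14D2.11, bath-28, F14D2.14, F14D2.8, lido-14 and bath-27. Within it bath-30 had 3.52 RPKM in CB4856 worms against 9.91 RPKM in maternal-strain worms and bath-29 had 2.25 and 3.27 RPKM, so the lack was not shared by every gene of the run. Other runs were bath-7, F52C6.4 and F52C6.3; bath-1 and bath-5; and F19B10.2, F19B10.10 and F19B10.1. Pairs were F59E12.6 and npl-4.1, R07C12.2 and K08D10.10, pud-3 and pud-4, grsp-4 and F07C4.6, fbxa-206 and Y102A5C.2, and the pseudogenes fbxa-193 and fbxa-129. Among the 71 were 11 genes of the fbx, bath, math, btb and skr families. Their share of all 8899 features open to the rule was not counted, so this number shows no excess of these families. Whether these genes are missing, silent or too divergent in CB4856 for their reads to align was not tested.

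**Figure D5:**
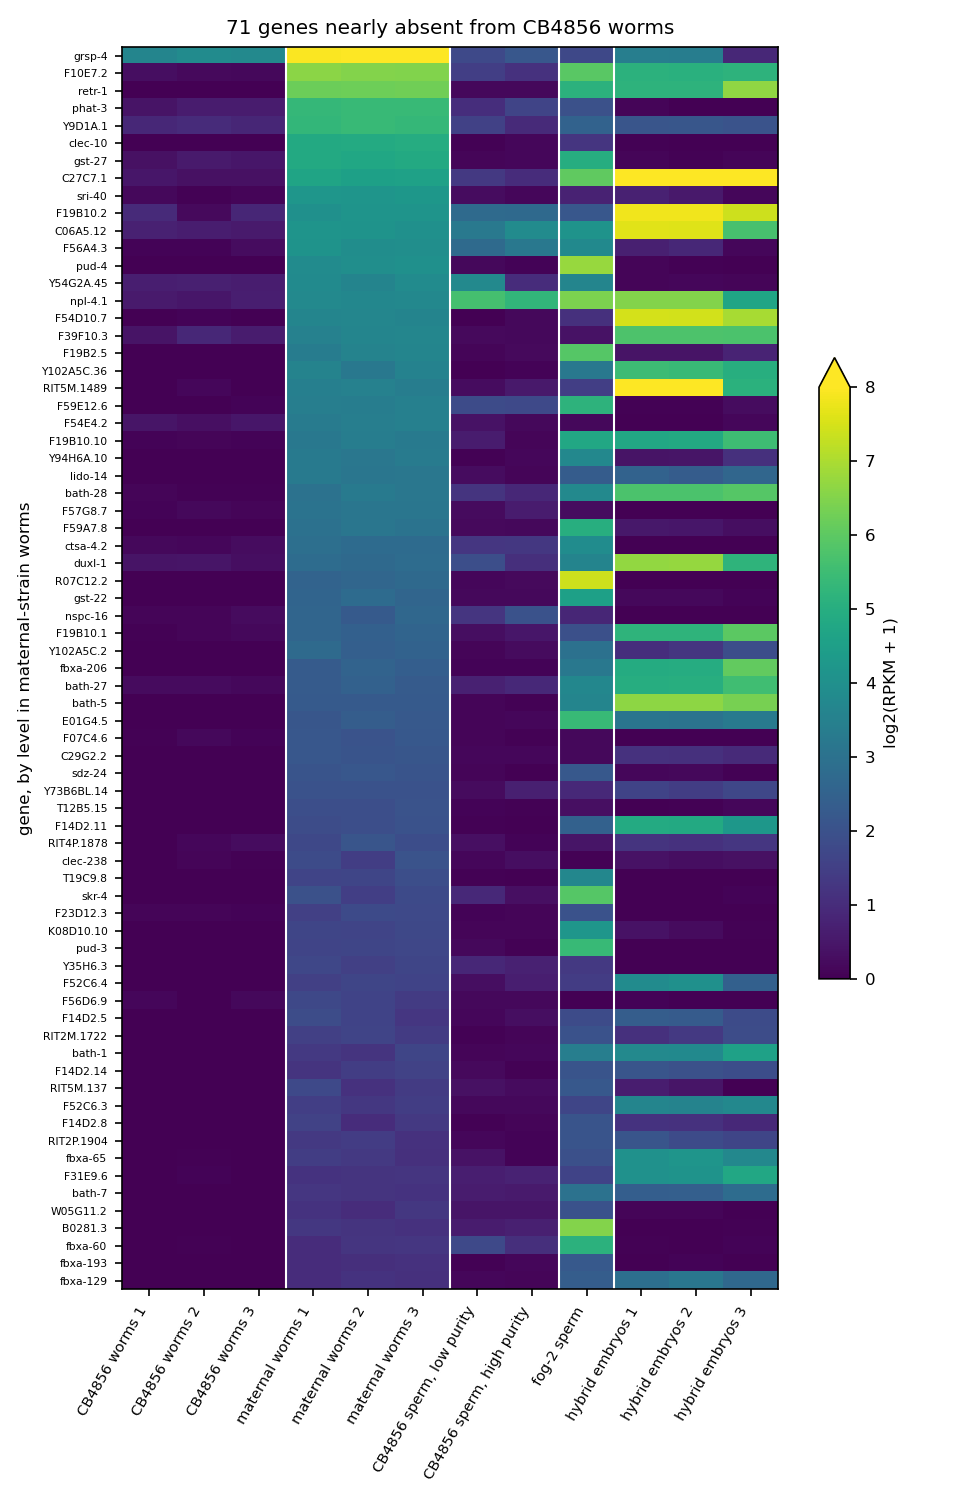
log2(RPKM + 1) of the 71 features nearly absent from CB4856 worms (rows, by level in maternal-strain worms) in each CB4856 worm, maternal-strain worm, CB4856 sperm, fog-2 sperm and poly(A) hybrid embryo library (columns); the colour scale ends at 8. The CB4856 worm columns are dark in every row but grsp-4, the CB4856 sperm columns are dark in most rows that are bright in fog-2 sperm, such as pud-4 and R07C12.2, and 38 rows average at least 1 RPKM in embryos.

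The mirror rule, at least 1 RPKM in each CB4856 library and a maternal-strain mean under 1/20 of the CB4856 mean, took 955 of 10426 features (9.16%). At least 10 RPKM in a clean sperm library was found for 915 of them, and 28 stayed under 5 RPKM in both. The highest of the 28 was Y43C5A.7, with 17.1, 15.8 and 18 RPKM in CB4856 worms against no read in maternal-strain worms, followed by C38D9.2, with 13.8, 13.9 and 14.6 RPKM against 0.0643, 0.138 and 0.161 RPKM. Several were genes of the groups above. The hedgehog-related gene grl-7, the collagens col-65 and col-169, the lipocalin lpr-5 and the lectins clec-17, clec-61, clec-71 and clec-24 were among them, as were abf-4, an antibacterial factor gene, and math-43, which had no value in maternal-strain worms and 1.88, 2.14 and 1.03 RPKM in CB4856 worms.

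Genes listed for variation between wild strains known from genetics were mostly alike in level. Whether each of them differs between CB4856 and N2 was not checked. Of 8 tested, 1 was called, ppw-1, an Argonaute gene of germline RNA interference known to carry a loss-of-function allele in CB4856. It had 4.17, 4.03 and 4.51 RPKM in CB4856 worms against 13.9, 13.9 and 14.5 RPKM in maternal-strain worms, a log2 difference of -1.52 ± 0.057 (limma adjusted p = 4.1e-06), and 20.2 RPKM in high-purity CB4856 sperm against 88.1 RPKM in fog-2 sperm. glc-1, a glutamate-gated chloride channel gene behind natural resistance to avermectins, had 3.70, 3.81 and 3.36 RPKM in CB4856 worms against 6.89, 6.38 and 6.99 RPKM in maternal-strain worms (log2 difference -0.78), and passed the required size after quantile normalization (-1.18) or centring on genes low in sperm (-1.09). dbt-1 averaged 45.3 RPKM in CB4856 worms against 28.8 RPKM in maternal-strain worms, nath-10 averaged 24 and 22 RPKM, and top-2, prg-1, tra-3 and set-24 had log2 differences of -0.25, -0.25, -0.45 and -0.21. zeel-1, the antidote gene of a selfish element that CB4856 lacks, had no value in CB4856 worms, but only 0.0474, 0.0609 and 0.0379 RPKM in maternal-strain worms. exp-1, glb-5, npr-1 and tyra-3 were likewise too low to test.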

How the data were processed

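The values are RPKM made and deposited by the authors, 1 column per library, with BWA named as aligner per the submitters' processing notes; its version, the build, the annotation and the counting of strand and shared reads are not given in the sources used here. Missing values were read as 0. Of 21035 features, 10527 had a gene-class name, 8592 a sequence name and 1916 none. Whole reads were recovered for 16833 of 16865 features, with 99.7% of implied lengths within 0.02 of a whole number. The strains were compared by limma 3.58.1 under R 4.3.3, with trended eBayes, on log2(RPKM + 1), worm libraries only, two-sided, adjusted by Benjamini and Hochberg. On simulated data of 10840 genes, 97 of the 98 scored changes of 1.5 and 72 of the 72 scored changes of 3 (log2) were called. The other changed genes were not scored. There were 0 false calls among 10640 unchanged genes. The log2 difference of 1 required for a call lay far above the spread between samples, so that 0 is no check. Spread between separately grown cultures was not tested. Summaries used Python 3.11.15.

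Deviations of same-numbered libraries of both strains correlated at 0.30, 0.29 and 0.73 for replicates 1, 2 and 3. Replicates 1 and 2 correlated as much crosswise, at 0.31 and 0.28. The values thus set apart only replicate 3 from replicates 1 and 2, and the labels state no pairing. The reported fit used no pairing. It entered only as the replicate block, an alternative setting that paired replicate 3 of both strains and the joined replicates 1 and 2. Genes named are the 10 largest calls each way among genes under 1 RPKM in clean sperm, the 5 largest each way without a gene-class name, the 10 highest and all neighbouring nearly absent genes, and per list the 2 most abundant members with up to 3 of the largest calls; others were named after their values were seen. The members and lists were chosen with earlier results of these data known. "Clean sperm" means the high-purity CB4856 and the fog-2 library, whose depth is unknown. Small RNA tables were not used here, and 0 value columns of the mRNA table matched no sample.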

Additional observations from a re-analysis of the deposited data

Results flagged for a closer look

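Of the 71 genes that were lower in every CB4856 worm library, 3 with at least 1 RPKM in a clean sperm library went the other way in sperm, where the high-purity CB4856 library held more than the fog-2 library. grsp-4 had 3.55 RPKM in high-purity CB4856 sperm and 2.36 RPKM in fog-2 sperm, with 12.5 RPKM in CB4856 worms against 252 RPKM in maternal-strain worms. F19B10.2 had 5.65 RPKM in high-purity CB4856 sperm and 3.53 RPKM in fog-2 sperm, with 0.690 RPKM in CB4856 worms against 16.3 RPKM in maternal-strain worms. nspc-16 had 3.08 RPKM in high-purity CB4856 sperm and 0.801 RPKM in fog-2 sperm, with 0.120 RPKM in CB4856 worms against 4.94 RPKM in maternal-strain worms. Each kind of sperm has 1 library, so the difference between worms and sperm was not tested.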

How the results depend on the processing

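Counts depended most on the pseudocount, the minimum level and the scaling; the cause of each change was not tested beyond that a stricter minimum tests fewer genes. With a pseudocount of 5, 620 genes rose and 101 fell over all genes, 8 and 16 among genes under 1 RPKM in both sperm libraries, 102 and 35 in the gene lists (207 and 72 as reported, without major sperm proteins), and 358 and 50 without a gene-class name (1015 higher as reported). A minimum of 5 RPKM gave 770 and 133, 18 and 18, 124 and 42, and 430 and 66 in the same order. Quantile normalization gave 985 and 543 over all genes, 23 and 73 in the class low in sperm, 116 lower genes in the lists, and 602 and 300 without a gene-class name. Centring on genes low in sperm gave 403 lower genes over all, 41 higher in the class low in sperm and 200 lower without a gene-class name. A pseudocount of 0.1 gave 147 higher genes in the class low in sperm; limits of 5 and 0.2 RPKM for that class gave 276 and 3 higher and 99 and 9 lower genes. Nearly absent features numbered 30 with at least 5 RPKM in each maternal-strain library, 89 at a ratio of 1/10 and 55 at 1/50.

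Leaving out libraries, alone or replicates 1 and 2 together, gave 1603 to 1628 higher and 223 to 229 lower genes, 80 to 86 and 38 to 41 in the class low in sperm, 204 to 212 and 71 to 73 in the lists, 1003 to 1020 and 117 to 123 without a gene-class name. Leaving out single libraries, an alternative chosen after seeing the data, gave 69 to 75 nearly absent features. The replicate block gave the same 1835 calls, 1611 higher and 224 lower, and changed no call of a named gene. In this balanced layout the block leaves every difference unchanged and could move a call only through its p-value, so it is a weak check. Of 213 named genes tested, 47 lost the call with a pseudocount of 5, 13 under quantile normalization, 11 and 5 under the centrings and 6 in the fit with the embryos. No difference of a named gene changed its call to the other direction. Levels near 1 RPKM in the shallower libraries, and the n of 2 samples that may share a culture, limit the precision.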

Other observations

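Between replicate 3 and replicates 1 and 2, 23 genes differed by at least 1 on the log2 scale in both strains, all 23 lower in replicate 3, out of 32 that did so in either strain. Whether mapping or annotation differed between these libraries was not checked. Y7A5A.6 was at 1171, 1155 and 0.542 RPKM in replicates 1, 2 and 3 of CB4856 worms, against 1026, 1236 and 0.354 RPKM in those of maternal-strain worms. It was at 132, 139 and 0.488 RPKM in poly(A) embryos. F14D2.7 was at 38.3, 34.8 and 0.00658 RPKM in CB4856 worms against 28.7, 31.8 and 0.207 RPKM in maternal-strain worms, and eif-6, a ribosome biogenesis factor gene, at 535, 549 and 17.5 RPKM against 486, 572 and 21.3 RPKM.

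Spermatogenesis Argonautes were higher in CB4856 worms. By level, 4 of the 20 tested Argonautes, alg-3, alg-4 and wago-10 among them, had passed the filter through CB4856 worms alone and had to differ. alg-3 had 26.6, 26.7 and 27.4 RPKM in CB4856 worms against 0.253, 0.106 and 0.185 RPKM in maternal-strain worms, alg-4 had 28.5, 29.4 and 29.3 RPKM against 0.0169, 0.109 and 0.0740 RPKM, and wago-10 had 2.43, 2.25 and 2.45 RPKM against 0, 0 and 0.00461 RPKM. The germline Argonautes hrde-1 and wago-1, with 398, 398 and 409 RPKM and 371, 375 and 389 RPKM in CB4856 worms against 525, 525 and 537 RPKM and 417, 414 and 433 RPKM in maternal-strain worms, were not called.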
